A study of Mus musculus with 13 samples.

Results

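The 10 genes described here encode MTR4 and the proteins that work with it in the TRAMP, NEXT and PAXT complexes of the nucleus. They were taken by symbol from a table of 23235 genes of mouse oocytes, and all 10 were found. Skiv2l2 encodes MTR4 itself. The 9 partners are Zcchc7, Papd5 and Papd7 (TRAMP), Zcchc8 and Rbm7 (NEXT), Zfc3h1 and Pabpn1 (PAXT), and Srrt and Ncbp1, which link the last 2 complexes to the cap of the RNA.

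MTR4 is an ATP-driven RNA helicase that unwinds nuclear RNA and threads it into the RNA exosome, the main RNA-degrading machine of the nucleus. It does not choose its substrates alone. In TRAMP a poly(A) polymerase (Papd5 or Papd7) and the zinc-knuckle protein ZCCHC7 mark RNAs, among them by-products of ribosomal RNA processing, with a short oligo(A) tail. In NEXT the scaffold ZCCHC8 and the RNA-binding protein RBM7 direct MTR4 to short, unprocessed transcripts such as promoter upstream transcripts. In PAXT the zinc-finger protein ZFC3H1 and the nuclear poly(A)-binding protein PABPN1 direct it to transcripts that already carry a poly(A) tail. SRRT (also called ARS2) and NCBP1 (the large subunit of the cap-binding complex) sit on the capped end of new transcripts.

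The labels list 13 libraries of polyadenylated RNA made with Smart-seq2, which primes RNA at its poly(A) tail and suits tiny inputs, each from 10 nuclei or 10 cytoplasms parted by micromanipulation. WT nuclei have 2 libraries at day 14 and 3 at day 21, WT cytoplasms have 2 at each day, and MTR4-null nuclei and MTR4-null cytoplasms have 2 each, all at day 21. The null genotype is given as Mtr4-null, and no allele, deleted exon, Cre driver or strain is named in the sources used here. The table holds 4 columns of FPKM-derived values, 1 for each genotype and compartment, and none for a single library. The WT columns carry no day, so a difference of genotype and a difference of age cannot be told apart in any comparison of null with WT.

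No column has a replicate, so no value below has an error, the variation among libraries is unknown, and no test was made. The columns are also not on 1 common scale, with totals from 594034 (WT nucleus) to 6637345 (WT cytoplasm), and read depth is unknown. Differences are therefore given relative to the median gene: each column was brought to the same median gene (its median ratio to the geometric mean of the columns was divided out), 1 was added, and log2 values were subtracted. A relative log2 difference of 1 is a 2-fold difference on that scale, where the added 1 shrinks the differences of low genes. Differences in the values as deposited are named as such. Ranks within a column and ratios of 2 genes within a column depend on no scaling between columns. In libraries of this kind, fewer RNA molecules per cell and a smaller share of the captured RNA cannot be told apart.

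The starts of 4 of these genes are shown because Zfc3h1, Srrt and Ncbp1 were the partners with an at least 2-fold higher relative value in null in both compartments, while Skiv2l2 is the targeted gene. The windows run from 250 bases before to 50 after the RefSeq start (build GRCm38.p6), 5′ to 3′ on the gene's own strand. Capitals mark every match on either strand to the 8 motifs searched: AAGATGGC (core of the YY1 motif), CCGGAAG (ETS core), GGGCGG (GC box), CCAAT (the box bound by NF-Y), GCATGCGC (part of the NRF1 motif), TATAAA (the TATA box), CACGTG (an E-box) and TAATTG (a core that NOBOX binds).
Skiv2l2, chr13:112927331-112927630, minus strand: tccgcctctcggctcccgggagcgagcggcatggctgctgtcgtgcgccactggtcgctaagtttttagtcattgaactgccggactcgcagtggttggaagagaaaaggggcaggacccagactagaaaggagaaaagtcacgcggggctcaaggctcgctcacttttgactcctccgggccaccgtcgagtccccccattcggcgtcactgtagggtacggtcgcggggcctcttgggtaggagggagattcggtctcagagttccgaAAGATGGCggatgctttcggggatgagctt
Zfc3h1, chr10:115384709-115385008, plus strand: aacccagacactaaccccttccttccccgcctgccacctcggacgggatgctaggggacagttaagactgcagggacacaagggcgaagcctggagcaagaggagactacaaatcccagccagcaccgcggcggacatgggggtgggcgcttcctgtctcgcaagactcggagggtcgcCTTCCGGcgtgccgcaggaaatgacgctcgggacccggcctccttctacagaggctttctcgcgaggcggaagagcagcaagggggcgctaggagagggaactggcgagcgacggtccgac
Srrt, chr5:137307625-137307924, minus strand: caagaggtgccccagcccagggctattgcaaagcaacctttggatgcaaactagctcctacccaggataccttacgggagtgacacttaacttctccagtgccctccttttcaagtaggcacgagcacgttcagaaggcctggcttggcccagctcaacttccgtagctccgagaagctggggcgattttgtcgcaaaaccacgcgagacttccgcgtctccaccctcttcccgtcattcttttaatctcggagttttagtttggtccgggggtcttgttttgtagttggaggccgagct
Ncbp1, chr4:46138261-46138560, plus strand: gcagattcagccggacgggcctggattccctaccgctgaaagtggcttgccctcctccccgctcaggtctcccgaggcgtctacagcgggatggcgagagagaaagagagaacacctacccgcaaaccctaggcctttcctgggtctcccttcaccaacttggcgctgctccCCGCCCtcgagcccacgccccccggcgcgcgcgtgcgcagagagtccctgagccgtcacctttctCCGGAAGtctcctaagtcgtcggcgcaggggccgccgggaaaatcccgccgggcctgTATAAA

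The Skiv2l2 window held AAGATGGC, as did that of Rbm7, against 2.75% of the 32851 promoter windows in the RefSeq table. CCGGAAG was found in the windows of Zfc3h1 and Ncbp1, and also in that of Zcchc7, against 8.86% of all windows. TATAAA was found in the windows of Zcchc7 and Ncbp1, against 13.6% of all windows. In Ncbp1 the match is the end of the window, so it lies after the RefSeq start and not before it. The Srrt window held none of the 8 motifs. GGGCGG was found for 5 of the 10 genes, against 35.7% of all windows, and the windows of the members, 11 in all, held 14 to 54 CG dinucleotides, with a median of 25 against 7 over all windows. Windows of only the genes expressed here were not counted, so these CG counts show no trait of the members. No motif of the 8 was thus common to these 3 partners. A match is a run of letters, not a site that a factor was shown to bind.

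The columns held oocyte RNA: all 12 oocyte markers, such as the egg coat gene Zp3 and the growth factor gene Gdf9, were above 0 in every column. Together they took from 1.58% (null nucleus) to 2.94% (WT cytoplasm) of a column's total. The 12 granulosa cell markers summed to 0.00159% to 0.00828% of a column, with Amh and Lhcgr at 0 in WT nuclei and Foxl2, Inha and Lhcgr at 0 in null nuclei. The granulosa share was 0.00303% in WT nuclei and 0.00159% in null nuclei, and 0.00649% and 0.00828% in cytoplasms. Inha was the highest of these markers in cytoplasms, with 253 (WT) and 86.8 (null), against medians of 58.7 and 39.3 over kept genes. Single markers went both ways there as deposited: Cyp19a1 had 78.0 and 15.4, and Wt1 had 1.41 and 16.4. Of 6 blood and immune markers in the table, 5 were at 0 in WT nuclei, 4 in null nuclei, 2 in WT cytoplasms and 4 in null cytoplasms. The 5 nucleus-retained RNAs listed as markers were higher in null as a summed share. They took 0.00470% of the WT nuclear total and 0.0291% of the null one, and 0.000751% and 0.00649% in cytoplasms, with Neat1 at 0 throughout. Malat1, the most abundant of them in nuclei, had 22.7 (WT) and 364 (null) there, and 9.83 and 136 in cytoplasms. Airn, the most abundant of them in WT cytoplasms, had 38.7 (WT) and 39.8 (null) there, and 2.58 and 18.4 in nuclei. The part of other cells or of nuclear RNA content in the values below was not tested.

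Skiv2l2, the targeted gene, was lower in both null columns. Its deposited value was 13.3 in WT nuclei against 3.54 in null nuclei. Cytoplasms held 187 in WT against 4.36 in null. The null values are thus the 2 lowest of the 4 as deposited. With each column brought to the same median gene, Skiv2l2 had 47.4 (WT) and 5.87 (null) in nuclei, and 55.0 and 2.37 in cytoplasms. Relative to the median gene, null differed from WT by -2.82 on the log2 scale in nuclei and by -4.05 in cytoplasms. Of the 14240 genes that reached 1 in 2 or more columns, which are called kept genes below, 235 had a lower relative difference in nuclei and 68 in cytoplasms. Under every scaling tried the difference was below -1 in both compartments. RNA of the targeted gene remained listed above 0 in both null columns.

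Within each column, which needs no scaling, Skiv2l2 stood at percentile 67.3 of kept genes in WT nuclei and 24.9 in null nuclei. Its cytoplasmic percentile was 70.0 in WT and 15.9 in null. Among the 10 members it was the 7th in WT nuclei and the 6th in WT cytoplasms, and the lowest in both null columns. In WT its value was near that of the middle partner, at 0.829 times the median of the other 9 in nuclei and 0.942 times in cytoplasms. In null the same ratio was 0.0676 and 0.0285.

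**Figure D1:**
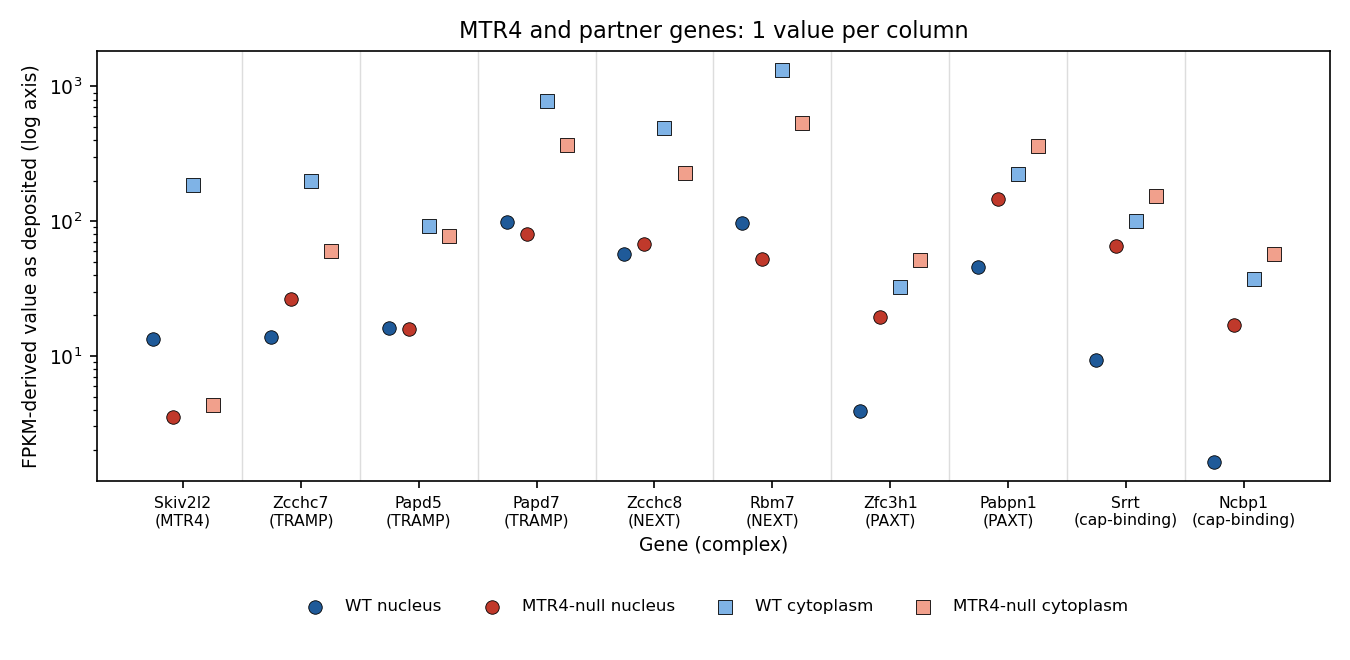
Deposited FPKM-derived values (log axis) of the 10 genes, with 1 point for each of the 4 columns and no error because no column has a replicate. Skiv2l2 is the lowest of the 10 in both null columns (3.54 and 4.36), while Zfc3h1, Pabpn1, Srrt and Ncbp1 have a higher point in null than in WT in both compartments.

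The end of the Skiv2l2 transcript overlaps that of Ppap2a (now Plpp1), a lipid phosphatase gene read from the other strand. Of the 3640 stretches of 50 bases in the coding GENCODE M21 transcript of Skiv2l2, 403 (11.1%) also occur in Ppap2a transcripts in the opposite sense, and the sources used here do not say whether reads were counted by strand. Reads of the overlap can therefore have been counted for either gene. Ppap2a was also lower in null, with a deposited value of 48.4 (WT) and 13.8 (null) in nuclei, and of 732 and 47.1 in cytoplasms. Its relative log2 differences were -2.86 and -3.02. The part of shared reads in either gene's values was not tested.

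Of the 4 nearest protein-coding genes of the table on each side of Skiv2l2, 2 of 8 were at least 2-fold lower in null nuclei relative to the median gene, 1 was higher, and in null cytoplasms 3 were lower and 0 higher. Of all kept genes, 16.4% were lower and 25.6% higher in null nuclei, and 19.0% and 23.9% in null cytoplasms, and with 8 genes, 1 or 2 genes separate the counts from these shares. On the far side lay Dhx29, a helicase gene of translation initiation, with 11.1 (WT) and 9.14 (null) in nuclei and 241 and 26.7 in cytoplasms (relative -1.32 and -2.21). Slc38a9, an amino acid transporter gene next to Ppap2a, had a relative difference of -0.80 in nuclei and -1.33 in cytoplasms. Ccno, the gene after Dhx29, had -0.03 and 0.03. These neighbours were looked at after the values of Skiv2l2 and Ppap2a had been seen.

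The pattern of Skiv2l2 over the 4 columns was shared most closely by Rerg, 5730469M10Rik, 4930588N13Rik, 4930525M21Rik and Nmnat1. Likeness was measured as the largest difference over the 4 relative log2 values, each centred on the gene's own mean, among 14134 kept genes that are not small RNA genes. That difference was 0.061 for Rerg and 0.26 for Nmnat1, the fifth. Rerg, a Ras-like GTPase gene, had 4.54 (WT) and 0.872 (null) in nuclei, and 59.6 and 0.259 in cytoplasms. Both null values of Rerg lie below 1, and 4930525M21Rik had 0 in null cytoplasms. Their likeness to Skiv2l2 thus depends on the added 1, which shrinks the differences of low genes. No partner was near Skiv2l2 by this measure: the closest, Zcchc7, came at rank 2292. In all, 44 kept genes had a relative difference as low as that of Skiv2l2 or lower in both compartments.

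The TRAMP genes had lower or little different relative values in null nuclei. Beside some values below stands the difference with digit factors, a scaling of the columns read from the digits of the deposited values. Papd7, a noncanonical poly(A) polymerase gene, had a deposited value of 97.9 (WT) and 80.0 (null) in nuclei and of 786 and 369 in cytoplasms. Papd5, the other such polymerase gene, had 16.0, 15.9, 91.9 and 77.7 in the same order. Papd7 was therefore the more abundant of the pair in every column, by 4.76- to 8.55-fold. Of the 50-base stretches of Papd7, 2.44% are shared with Nsun2 on the opposite strand. Relative to the median gene, null was lower than WT in nuclei for Papd7 (-1.39) and Papd5 (-1.09), and in cytoplasms the values were -0.20 and 0.63. As deposited, the nuclear differences were -0.29 and -0.01, so their size rests on the scaling. Zcchc7, which encodes the RNA-binding subunit, had 13.9 and 26.3 in the WT and null nuclei and 199 and 60.3 in cytoplasms. Its relative differences, -0.18 in nuclei and -0.81 in cytoplasms, were within 2-fold, but the nuclear one was 0.87 as deposited and -1.07 with digit factors.

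Of the NEXT genes, Rbm7 differed most. This RNA-binding subunit had a deposited value of 97.2 (WT) and 52.4 (null) in nuclei, and 1319 and 538 in cytoplasms. It was the highest of the 10 members in both cytoplasms. The relative difference was -1.98 in nuclei and -0.40 in cytoplasms. As deposited, the nuclear difference was -0.88. Zcchc8, the scaffold of NEXT, had 56.8 and 67.5 in nuclei and 491 and 228 in cytoplasms, with relative differences of -0.85 and -0.22. Its nuclear difference was 0.24 as deposited and -1.74 with digit factors, and its cytoplasmic one was -1.11 as deposited. The 50-base stretches of Rbm7 were 2.93% shared with transcripts of other genes, all on the same strand, so that a small part of its reads can be split.

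The PAXT genes had higher relative values in null, except that Pabpn1 turned to -0.31 in nuclei with digit factors. Zfc3h1, the zinc-finger scaffold, had a deposited value of 3.92 (WT) and 19.5 (null) in nuclei, and 32.3 and 51.3 in cytoplasms. Its relative difference was 1.16 in nuclei, or 0.31 with the digit factors, and 1.46 in cytoplasms. Pabpn1, the nuclear poly(A)-binding protein gene, had 45.8 and 147 in nuclei and 225 and 360.4 in cytoplasms. Its relative difference was 0.58 in nuclei, within 2-fold, and 1.55 in cytoplasms. In null nuclei Pabpn1 was the highest of the 10 members, against 4th in WT nuclei. Of its 50-base stretches 24.6% were shared with other genes, nearly all with Gm20521 on the same strand, so its values are uncertain to that extent.

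The cap-side genes had the highest nuclear differences of the 10. Srrt, which joins the cap-binding complex to the exosome adaptors, had a deposited value of 9.28 (WT) and 65.7 (null) in nuclei, and 99.97 and 153 in cytoplasms. Ncbp1 had 1.65 and 17.0 in nuclei and 37.1 and 57.1 in cytoplasms. Relative to the median gene, null was higher than WT by 1.69 for Srrt and 2.09 for Ncbp1 in nuclei, and by 1.47 and 1.43 in cytoplasms. The WT nuclear value of Ncbp1 was the lowest of all 40 values of the members, so its fold is the least certain. Ncbp1 also shares 2.13% of its 50-base stretches with Tstd2 and Xpa on the opposite strand. As deposited, Xpa had 7.96 (WT) and 65.3 (null) in nuclei, and 188 and 182 in cytoplasms. Tstd2 had 1.21 and 6.52 in nuclei, and 12.0 and 14.3 in cytoplasms. The part of shared reads in the values of Ncbp1 was not tested.

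Across the 9 partners, 3 had a relative value at least 2-fold higher in null nuclei (Zfc3h1, Srrt and Ncbp1), and 3 were at least 2-fold lower (Papd5, Papd7 and Rbm7). Among all kept genes 25.6% were higher and 16.4% lower. In null cytoplasms 4 partners were higher (Zfc3h1, Pabpn1, Srrt and Ncbp1) and 0 lower, against 23.9% and 19.0% of kept genes. With 9 genes, 1 or 2 genes separate these counts from the background shares, so they are no result about the partners as a group. The median over the partners was -0.18 in nuclei and 0.63 in cytoplasms, against 0.05 and 0.04 over all kept genes. The split moved with the scale: as deposited, 4 were higher and 0 lower in nuclei, against 46.3% and 3.69% of kept genes, while in cytoplasms 0 were higher and 4 lower, against 14.9% and 43.7%.

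The direction did not move with the scale for several members. Under the main setting and the 5 other settings tried, Zfc3h1, Srrt and Ncbp1 were higher in null in both compartments and Skiv2l2 was lower in both. Pabpn1 was higher in cytoplasms, and Rbm7 and Papd7 were lower in nuclei, under each of them. Papd5 was also below 0 in nuclei under each, but its difference as deposited, -0.01, is in effect no difference. For Zfc3h1, Srrt and Ncbp1 the relative difference was at least 2-fold in both compartments, as it was for 16.2% of kept genes. That size did move with the scale. As deposited, the cytoplasmic differences of these 3 genes were 0.65, 0.61 and 0.61. With digit factors, the nuclear differences of Zfc3h1 and Srrt were 0.31 and 0.82. No partner was at least 2-fold lower in both, as 8.61% of kept genes were.

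**Figure D2:**
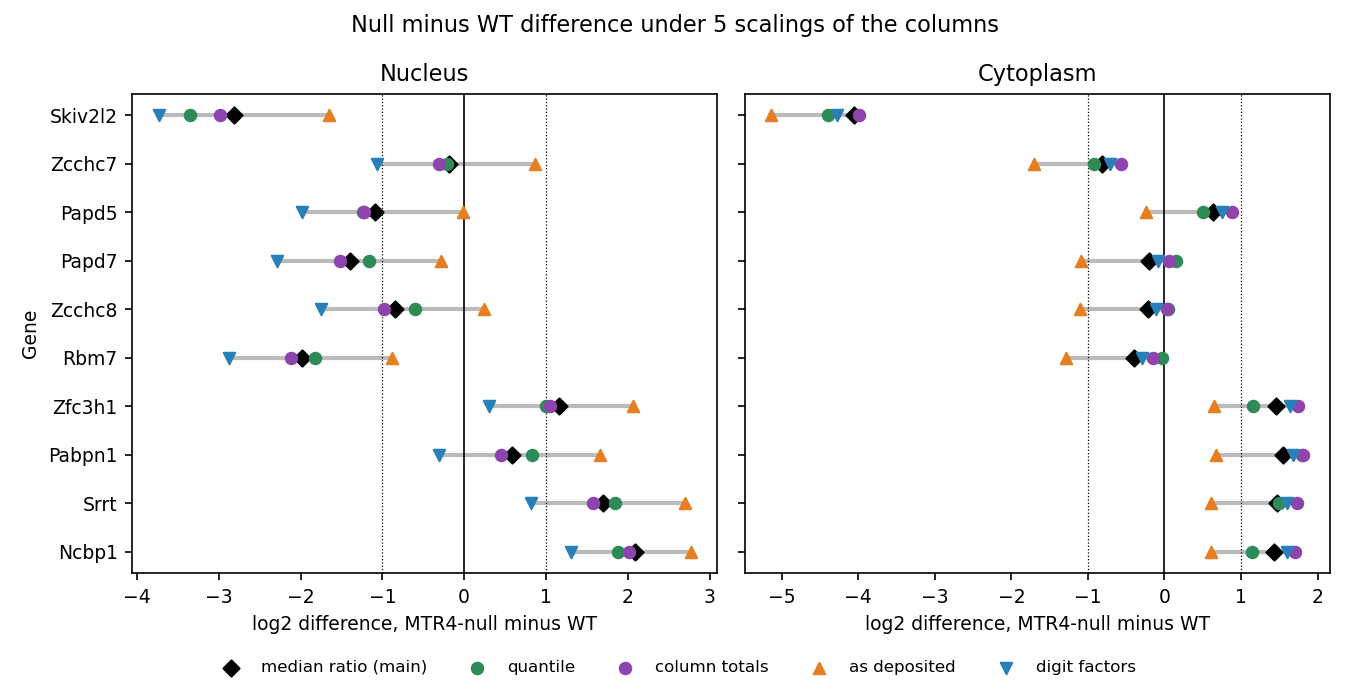
Null minus WT log2 difference (horizontal axis) of each gene in nuclei (left) and the cytoplasm (right) under 5 scalings of the columns, with grey bars from the lowest to the highest and dotted lines at 2-fold. Skiv2l2 lies left of the lower dotted line throughout, from -3.73 to -1.65 in nuclei and from -5.13 to -3.99 in cytoplasms, while Zfc3h1, Srrt and Ncbp1 lie right of 0 in both panels.

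Ratios of 2 members within a column show how the parts of a complex stood to each other, free of the column's scale. Zcchc8 to Rbm7, the NEXT pair, had a ratio of 0.585 in WT nuclei and 1.29 in null nuclei, so the order of these genes turned. In cytoplasms the same ratio was 0.372 in WT and 0.423 in null. Zcchc7 to Papd5, of TRAMP, went from 0.867 to 1.65 in nuclei and from 2.17 to 0.776 in cytoplasms, in opposite directions. Papd5 to Papd7 went from 0.164 to 0.199 in nuclei and from 0.117 to 0.210 in cytoplasms.

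Of the pairs set out here, those with the steadiest cytoplasmic ratios were of the genes that were higher in null. These genes had close relative folds of null over WT in cytoplasms: Zfc3h1 2.94, Pabpn1 2.96, Srrt 2.84 and Ncbp1 2.85. Ratios across the complexes are thus about as steady, and the steadiness is no trait of a complex. Zfc3h1 to Pabpn1 had 0.144 in WT cytoplasms and 0.142 in null cytoplasms. Srrt to Ncbp1 had 2.69 in WT and 2.68 in null. In nuclei the first ratio was 0.0855 in WT and 0.132 in null, and the second was 5.63 and 3.86. How far such ratios vary between libraries is unknown.

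**Figure D3:**
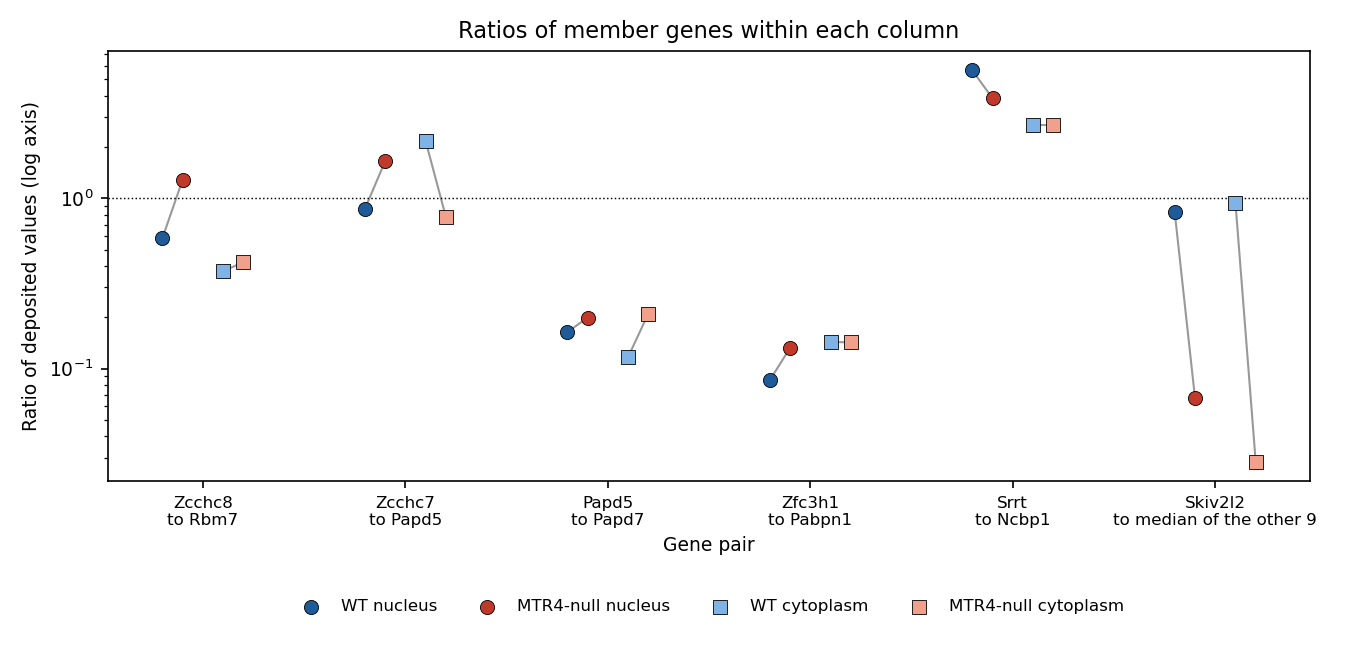
Ratio of the deposited values of 2 member genes within a column (log axis), with WT and null joined by a line for the nucleus (circles) and the cytoplasm (squares) and the dotted line at equal values. Skiv2l2 to the median of the other 9 spans from 0.829 to 0.0676 in nuclei and from 0.942 to 0.0285 in cytoplasms, while Srrt to Ncbp1 hardly differs between the cytoplasms (2.69 and 2.68).

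Between the compartments of WT oocytes, the members differed little relative to the median gene. Papd5 (1.06) and Pabpn1 (1.29) were at least 2-fold higher in nuclei than in cytoplasms on the relative log2 scale, 0 partners were lower, and 7 lay within 2-fold, against 9.36% and 8.05% of kept genes higher and lower. Skiv2l2 had -0.21 and Ncbp1, the lowest, -0.79. As deposited, all 9 partners and Skiv2l2 were lower in nuclei, as 91.2% of kept genes were, with 1.74% higher. These are RNA levels, and they say nothing of where the proteins are.

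In null oocytes, Rbm7 was the partner with a different level in the 2 compartments, at -1.74, lower in nuclei. The other 8 partners lay within 2-fold, from -0.66 (Papd5) to 0.40 (Zcchc7), against 12.1% of kept genes at least 2-fold higher and 9.30% lower. Skiv2l2 had 1.03 in null, with 3.54 in nuclei and 4.36 in cytoplasms as deposited, and this turned to -0.24 without rescaling. As deposited, 9 of 9 partners were lower in null nuclei, as 71.9% of kept genes were, with 2.91% higher.

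The nucleus minus cytoplasm difference was lower in null than in WT for 6 of the 9 partners, and by at least 2-fold for Papd5 (-1.72), Rbm7 (-1.58) and Papd7 (-1.19), against 15.1% of kept genes at least 2-fold lower and 17.1% higher. As deposited, it was higher in null for all 9, and at least 2-fold for 5, against 71.7% of kept genes higher and 3.32% lower. For Skiv2l2 it was 1.24.

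Ranks within a column gave the same picture without any scaling. Ncbp1 went from percentile 31.5 of kept genes in WT nuclei to 55.9 in null nuclei, and from 42.7 to 57.8 in cytoplasms. Srrt went from 61.0 to 82.8 and from 59.3 to 78.2, and Zfc3h1 from 45.5 to 58.8 and from 40.2 to 55.5. Pabpn1 went from 86.0 to 91.5 in nuclei and from 73.2 to 89.5 in cytoplasms. Rbm7 went from 92.9 to 79.2 in nuclei and stayed at 93.1 and 92.9 in cytoplasms. Papd5 had 70.7 and 54.4 in nuclei but 57.8 and 64.4 in cytoplasms. Zcchc8 and Papd7 lay between 83.2 and 93.0 in all 4 columns.

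**Figure D4:**
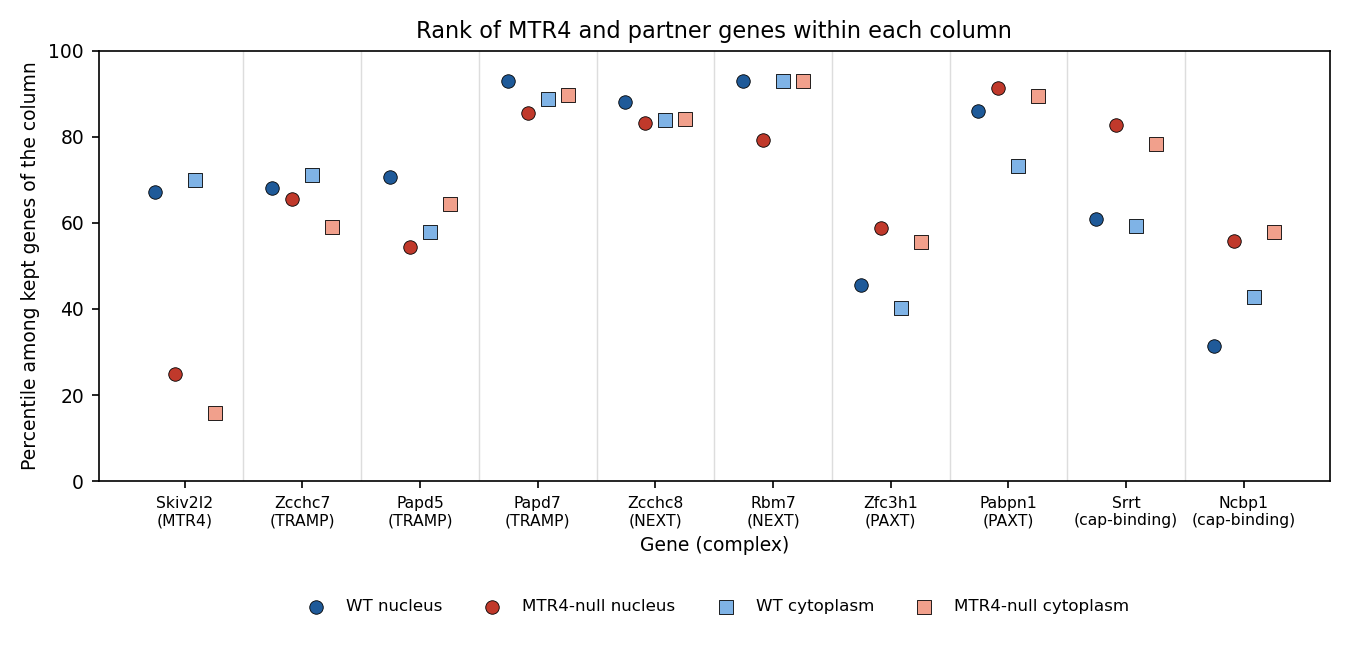
Percentile of each gene's value among the 14240 kept genes of the same column (vertical axis, 0 to 100), with 1 point per column. Skiv2l2 stands at percentiles 24.9 and 15.9 in the null columns, and Zfc3h1, Pabpn1, Srrt and Ncbp1 stand higher in null than in WT in both compartments.

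The range from the lowest to the highest partner was narrower in null. In WT nuclei the highest partner exceeded the lowest by 59.5-fold, and in null nuclei by 9.27-fold. In cytoplasms the same range was 40.8-fold in WT and 10.5-fold in null. The order changed with it: in WT nuclei Papd7, Rbm7, Zcchc8 and Pabpn1 led, in null nuclei Pabpn1, Papd7, Zcchc8 and Srrt. With 1 value per column, neighbours in these orders cannot be told apart from equal. The WT nuclear range rests on the low value of Ncbp1 (1.65). No range over other genes was set beside these, so they show no trait of the partners.

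Other genes of the pathway were counted from lists of its known parts. Their counts are to be read beside the shares of all kept genes. In null nuclei 25.6% were higher and 16.4% lower by relative value (46.3% and 3.69% as deposited), and in null cytoplasms 23.9% and 19.0% (14.9% and 43.7%). Of the 14 RNA exosome genes, 4 were at least 2-fold higher and 2 lower in null nuclei by relative value (6 and 0 as deposited), and 3 higher and 5 lower in cytoplasms (3 and 11). The genes named as higher were Exosc6 (relative 2.30 in nuclei and 3.29 in cytoplasms), Exosc2 (1.51 and 5.64) and C1d, a cofactor that binds the exosome's nuclear exonuclease (1.79 and 2.56). As deposited, C1d had only 0.741 in WT nuclei and 7.01 in null nuclei, so the size of its nuclear difference depends on the added 1. Exosc2 stood out, with 486 (WT) and 2975 (null) in nuclei and 178 and 4884 in cytoplasms. The cytoplasm also held lower values of Dis3l (relative -2.37) and Exosc9 (-1.69). Exosc10, that nuclear exonuclease, had 26.2 and 31.1 in nuclei but 432 and 51.8 in cytoplasms (relative -2.13).

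Of 9 further cap-binding and 3′ end partners in the table, 0 differed at least 2-fold in null nuclei by relative value (3 higher as deposited). In cytoplasms 1 was higher, Zc3h4 (56.8 in WT and 120 in null), which restrains noncoding transcription, and 1 was lower, Zc3h14, a poly(A)-binding protein gene (248 and 62.9). As deposited these counts were 1 and 2. Ncbp2, the small subunit of the cap-binding complex, had 37.8 and 52.3 in nuclei and 590 and 292 in cytoplasms, with relative differences of -0.63 and -0.13. On this scale the differences of Ncbp2 were thus below 0 and those of Ncbp1 above 0, while as deposited that of Ncbp2 in nuclei was 0.46.

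Of 4 other MTR4-binding proteins, Gltscr2 (NOP53, a ribosome assembly factor) was higher in null nuclei, with 8.62 and 61.2 (relative 1.69), and Utp18 was lower (58.0 and 57.3, relative -1.11, as deposited -0.02). In cytoplasms Nvl, an AAA ATPase of ribosome assembly, was lower (107 and 25.4, relative -1.14). Of 5 kept Ski2-like helicases, the family of MTR4, Skiv2l, its cytoplasmic counterpart, was higher in null nuclei (3.70 and 35.6, relative 2.08), and 0 were lower. In cytoplasms 1 was at least 2-fold higher, again Skiv2l (relative 1.29), and 1 lower, Snrnp200, a spliceosome helicase gene (158 and 41.2). As deposited, 0 were higher and 3 lower there.

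Of 11 other poly(A) polymerase and poly(A)-binding protein genes, 1 was at least 2-fold higher and 4 lower in null nuclei (2 and 1 as deposited), and 3 were higher and 3 lower in cytoplasms (2 and 5). Pabpc1, the main cytoplasmic poly(A)-binding protein gene, had 8.15 and 77.5 in nuclei and 116 and 244 in cytoplasms (relative 2.11 and 1.92). Pabpn1l, the egg-type relative of Pabpn1, went the other way, with 623 and 126 in nuclei and 8253 and 752 in cytoplasms (relative -3.40 and -2.57). Other cytoplasmic differences were those of Zcchc11 (relative 1.91), Mtpap (-2.09) and Papolg (-1.40). In WT oocytes Pabpn1l exceeded Pabpn1 in both compartments. In null nuclei Pabpn1 had 147 and Pabpn1l 126, and in null cytoplasms Pabpn1l remained above Pabpn1, with 752 and 360.4.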

How the data were processed

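The authors deposited 1 table whose name gives FPKM, with 4 columns, 1 for each genotype and compartment. TopHat2 2.1.1, Cufflinks 2.2.1 and mm9 are named per the submitters' processing notes, with no role or settings. The deposited values were treated as a score, because column totals differ by more than FPKM on 1 scale allows. Their digits can be read as FPKM averaged and multiplied by 0.125 (WT nucleus), 0.5 (null nucleus), 1 (WT cytoplasm) and 0.5 (null cytoplasm): a mean of 2 values then has at most 7 digits once doubled in 87.6% and 97.6% of nuclear values, against 23.5% and 74.6% with a factor of 1. In the cytoplasms this measure does not tell factors apart (99.9% and 100% with a factor of 1). There the null factor rests on values of at most 6 digits (100%, against 64.5% with a factor of 1), and the WT factor is poorly fixed.

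The columns were divided by 0.281 and 0.604 (WT and null nuclei) and by 3.41 and 1.84 (WT and null cytoplasms), from 14273 genes above 0 in all 4 columns. A pseudocount of 1 was used. Genes that reached 1 in 2 or more columns were kept (14240), and all 10 members exceeded 1 in every column. The alternatives were values as deposited, column totals, quantile normalization, digit factors, a pseudocount of 0.1 and no filter. The rescaling code was tested on simulated data, which does not show which scale is right here.

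All members are named. From each further list, up to 3 genes per direction were eligible that differed at least 2-fold both relative to the median gene and as deposited, and others are named to complete a count or a protein pair, chosen after their values were seen. The members and lists were chosen with earlier results of these data known. Promoter windows came from RefSeq (GRCm38.p6), 7 members matched by symbol and 3 by an older symbol (Skiv2l2, Papd5 and Papd7), and transcripts from GENCODE M21. No coordinates of the deposited build were used. Python 3.11.15, pandas 2.3.3, numpy 2.4.6 and matplotlib 3.10.9 were used.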

Additional observations from a re-analysis of the deposited data

How the results depend on the processing

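No paired analysis was possible because the table holds no column for a single library, and for the same reason no library could be left out. The filter on low values entered no difference or ratio of a member, so leaving it out could move only shares and ranks over all genes. Without it the shares fell, as from 25.6% to 17.3% higher in null nuclei and from 23.9% to 15.8% in null cytoplasms. A pseudocount of 0.1 was tried on the members' differences, the partner counts and the pair ratios. It moved none of these past the 2-fold mark or by over 1.5 times. The scaling of the columns did. Null minus WT for Skiv2l2 in the nucleus was -1.65 as deposited and -3.73 with digit factors, and in the cytoplasm -5.13 as deposited. Nucleus minus cytoplasm for Skiv2l2 in WT was -3.72 as deposited and -0.81 with digit factors. In null it was -0.24 as deposited, -0.27 with digit factors, 0.68 with column totals and 0.83 with quantile normalization. In the null nucleus, 0 partners were at least 2-fold lower than in WT as deposited, and with digit factors 1 was higher and 5 lower. In the null cytoplasm, 0 were higher and 4 lower than in WT as deposited. Nucleus against cytoplasm in WT, 0 partners were higher and 9 lower as deposited, 1 was higher with column totals and 1 with quantile normalization, and with digit factors 0 were higher and 1 lower. In null, 9 were lower as deposited, 9 with digit factors and 3 with column totals. As deposited, the WT difference between compartments turned to -2.45 for Papd5 and -2.27 for Pabpn1. Which scale is right was not tested, and without replicates or depth no error can be given.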
